A study of Drosophila melanogaster with 30 samples.

Results

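The 33 mitosis genes described here code for proteins that take a cell into, through and out of cell division, and their transcripts were followed in blood cells of Drosophila melanogaster larvae. They were chosen by name, as Cdk1, CycA, CycB, CycB3, stg, polo, aurB, Det, tum, pav, fzy, BubR1, mad2, Incenp, borr, sle, msd1, Klp61F, Klp10A, ncd, sub, asp, cnn, SMC2, barr, glu, stai, Nuf2, Ndc80, cid, pim, thr and vih, out of 16322 genes listed in any of 30 Drop-seq libraries. Drop-seq catches single cells in droplets and counts the 3′ ends of their polyadenylated transcripts by unique molecular identifiers (UMIs). All 33 genes were listed for 26 libraries, whereas the infested lymph gland libraries listed 27 of them and left out stg, tum, sub, stai, thr and vih. Those libraries listed 14999 genes against 15540 in the normal lymph gland, and the 541 unlisted genes held 2.08% to 2.51% of the UMIs of a normal lymph gland library.

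All larvae were of the Oregon-R strain. The lymph gland, the larval organ in which blood cells (hemocytes) form, was sampled from uninfested (normal) larvae at 72, 96 and 120 h after egg laying (AEL), with 5, 5 and 4 libraries. It was also sampled at 96 h AEL from larvae exposed to wasps at 72 h AEL, with 4 libraries. Hemocytes in circulation came from normal larvae at 96 and 120 h AEL and from larvae infested at 72 h AEL at the same times, with 3 libraries in each of these 4 groups. Lymph gland libraries were made from the primary lobes of pooled larvae, and libraries of a group were labelled as biological replicates.

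Entry into mitosis is driven by the kinase Cdk1 with the cyclins CycA, CycB and CycB3, once the phosphatase String (stg) has removed the inhibitory phosphates from Cdk1. Condensins compact the chromosomes, kinetochores tie them to the spindle, and the spindle checkpoint holds back the anaphase-promoting complex until every kinetochore is attached. Larval hemocytes are known to multiply by division, both as progenitors in the lymph gland and as plasmatocytes in circulation, whereas lamellocytes, the large flat cells that encapsulate wasp eggs, are described as cells that no longer divide.

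After filtering, 48370 of 50849 barcodes were kept as cells, from 137 to 4537 per library, with library totals of 1229715 to 33310323 UMIs and medians of 3709 to 15937 UMIs per cell. The prohemocyte markers Tep4 and Ance summed to 2851 to 7210 CPM (counts-per-million of the UMIs of a library) in the normal lymph gland and 360 to 644 CPM in normal circulation, where the plasmatocyte markers Hml, Pxn and NimC1 reached 5444 to 10331 CPM. The infested circulation at 96 h AEL went against this order, with 2060 to 2791 CPM of prohemocyte and 734 to 1574 CPM of plasmatocyte markers, nearer to the lymph gland than to normal circulation. Its library 1 held 194 cells with a median of 13846 UMIs, far deeper than the others. Fat body markers (Lsp1beta, Lsp2 and Fbp1) summed to 16.6 to 508 CPM in normal circulation and 0 to 0.94 CPM in the normal lymph gland. Neuron markers (elav, nSyb and brp) summed to 25.9 to 107 CPM and 3.06 to 21.0 CPM. Infested circulation at 96 h AEL held 0 to 0.995 CPM of fat body and 2.23 to 14.6 CPM of neuron markers. It held 15.2 to 41.8 CPM of Antp and kn, markers of the posterior signaling center of the lymph gland. These 2 genes summed to 12.4 to 51.8 CPM in the normal lymph gland and 0.584 to 11.5 CPM in normal circulation. Whether the tissue of the infested circulation libraries of 96 h AEL is as labelled was not tested. The part of other tissues in the results for circulation was not tested. Normal circulation library 3 of 96 h AEL and library 1 of 120 h AEL shared 38 cell barcodes, 9.03% of the smaller library. Across the 2000 genes compared, library 3 of 96 h AEL resembled library 2 of 120 h AEL (r = 0.961) more than its own group (r = 0.888 and 0.917). Library 3 of 120 h AEL likewise resembled libraries 1 and 2 of 96 h AEL (r = 0.974 and 0.984) more than its own group (r = 0.907 and 0.908). Whether the ages of these normal circulation libraries are as labelled was not tested. The counts of members called that rest on these libraries, interactions included, are also given without library 3 of both groups.

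The summed level of the 27 genes listed in every library was highest in normal circulation and the infested lymph gland and lowest in the normal lymph gland at 120 h AEL. In the normal lymph gland at 72 h AEL the 5 libraries held 657, 881, 763, 580 and 1122 CPM. At 96 h AEL they held 1067, 907, 945, 883 and 985 CPM, and at 120 h AEL the 4 libraries held 472, 476, 343 and 626 CPM. All 4 libraries of 120 h AEL thus lay below all 5 of 96 h AEL, while the range of 72 h AEL overlapped both. The 4 infested lymph gland libraries held 1114, 1191, 1285 and 1354 CPM, above every normal lymph gland library of 96 h AEL. Normal circulation held 1417, 1399 and 1121 CPM at 96 h AEL and 1361, 1189 and 1432 CPM at 120 h AEL, and the 2 ages overlapped. Its 12, 9 and 17 cells of 96 h AEL with no Tep4 or Hml UMI held 3172, 1399 and 3137 CPM. At 120 h AEL 6, 21 and 35 such cells held 753, 1620 and 1675 CPM. Infested circulation held 1434, 855 and 1000 CPM at 96 h AEL, with library 1 far above the other libraries, and 830, 674 and 785 CPM at 120 h AEL, below every normal circulation library. The nucleolar gene sle held a mean of 14.3% to 23.4% of the UMIs of the 27 genes in each group. It was the largest part in all groups but infested circulation at 120 h AEL, where Klp10A (17.1%), sle (14.3%) and cnn (13.5%) led. Alone it averaged 276 CPM in the infested and 179 CPM in the normal lymph gland of 96 h AEL. No p-value was computed for these sums. In sums over cells, fewer dividing cells and less transcript per cell cannot be told apart.

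**Figure D1:**
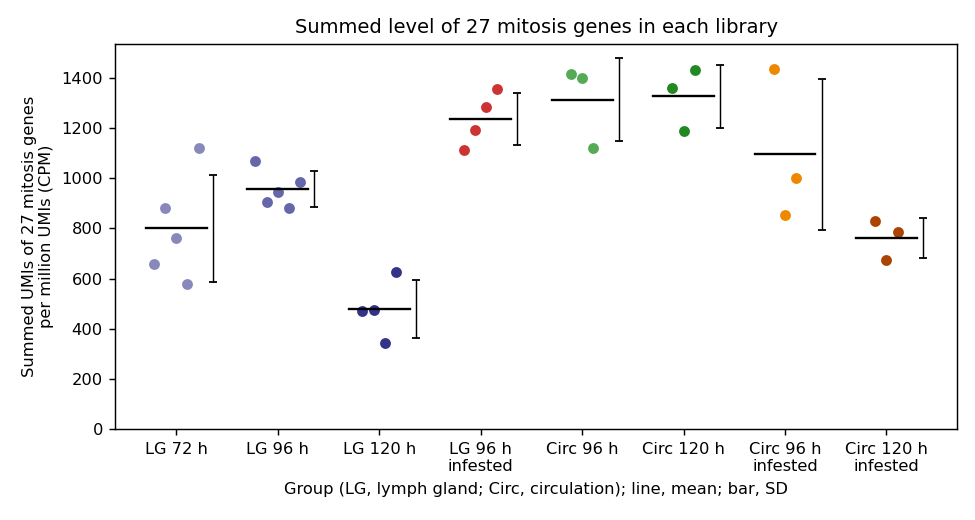
Summed level of the 27 mitosis genes listed in every library, in counts-per-million (CPM, vertical axis), for the 30 libraries by group (horizontal axis; LG, lymph gland; Circ, circulation); points are libraries, lines are means and bars are SDs. The 4 normal lymph gland libraries of 120 h AEL lie between 343 and 626 CPM and the 3 infested circulation libraries of 120 h AEL between 674 and 830 CPM, while both normal circulation groups reach above 1400 CPM.

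The transcripts were not spread evenly over cells. With every lymph gland cell thinned to 2000 UMIs and shallower cells left out (80, 1009, 742 and 1519 cells of the 72, 96 and 120 h AEL and infested groups), cells with at least 3 UMIs of the 27 genes made up 13.0% to 35.0% of a library at 72 h AEL. The range was 25.1% to 31.6% at 96 h AEL but 5.81% to 14.9% at 120 h AEL. In the infested lymph gland they made up 33.5% to 41.3%, again above every normal library of 96 h AEL. Unthinned, the group means were 74.2%, 67.3%, 42.1% and 71.5%, so the place of the 72 h AEL group depended on depth. Unthinned, the infested libraries (63.1% to 79.2%) also overlapped the normal ones of 96 h AEL (54.8% to 77.9%). Circulating cells were compared at 1000 UMIs, where such cells made up 12.05% to 19.9% in normal circulation at 96 h AEL and 14.8% to 20.1% in that of 120 h AEL. In infested circulation the younger age had 8.01% to 23.2% and the older 6.97% to 10.5%. At that depth the 120 h AEL lymph gland held 1.74% to 4.63%, below every circulation library. No cell type known to lack these transcripts was annotated in the files, so the share that free RNA alone would give was not measured.

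Most of the 33 genes were concentrated in cells that held other members. For each gene, the share of its UMIs that fell in cells with at least 3 UMIs of the other members was divided by the share of such cells, over the normal lymph gland at 2000 UMIs. The median of this concentration was 1.88 over the 33 genes and 1.07 over 7341 genes, whose 95th percentile was 1.44. The highest values belonged to asp (2.44, from 91 UMIs), whose product focuses spindle poles, CycB (2.34) and stai (2.34), the fly stathmin that binds tubulin. Det (1.49), the fly survivin, lay just above the 95th percentile, and CycA (1.40), Klp10A (1.40), vih (1.24) and cnn (1.12) lay below it. cnn, a core protein of the centrosome, was thus spread over cells almost like a gene outside the list. These ratios describe how transcripts share cells and libraries, and were not tested.

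**Figure D2:**
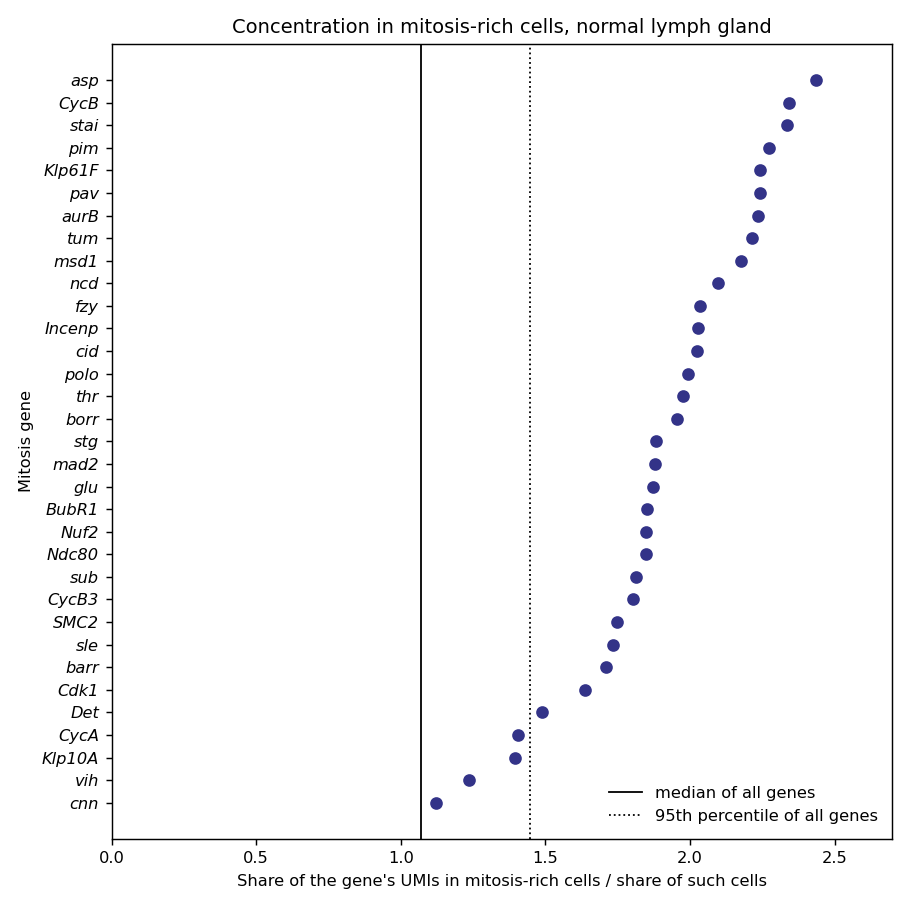
Concentration of each of the 33 mitosis genes in cells rich in the other members, over the normal lymph gland libraries with cells thinned to 2000 UMIs (horizontal axis, share of the gene's UMIs in such cells divided by the share of such cells; a value of 1 means an even spread). The solid line is the median of all genes (1.07) and the dotted line their 95th percentile (1.44); cnn (1.12) and vih (1.24) sit lowest and asp (2.44) highest.

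Whether the members change with age in the normal lymph gland was tested gene by gene with edgeR's quasi-likelihood test on library sums, with p-values adjusted over all genes tested (FDR). From 72 to 96 h AEL, 4 of 33 members rose and 0 fell, against 19.9% of all 7740 genes called at an FDR under 0.05 (9.74% higher and 10.2% lower). Cdk1 held 51.0, 63.7, 58.1, 41.7 and 75.6 CPM at 72 h AEL and 89.5, 73.4, 81.3, 76.4 and 82.6 CPM at 96 h AEL. Its ranges overlapped slightly, and the log2 fold change was 0.35 ± 0.10 (SE, FDR = 0.026). stai rose most, from 20.5, 27.9, 34.3, 15.3 and 27 CPM to 69.2, 53.3, 35.0, 48.5 and 39.5 CPM, without overlap (0.86 ± 0.20, FDR = 0.0062). The centromeric histone cid (0.80 ± 0.21, FDR = 0.013) and the augmin subunit msd1, from 27.8 to 46.6 CPM to 47.8 to 57.9 CPM (0.50 ± 0.15, FDR = 0.026), rose as well. The Cdk1 call was lost in 5 of 10 fits that left out 1 library and the msd1 call in 4 of 10, whereas the stai call held in all of them. stg held 80.9, 114, 86.4, 80.04 and 96 CPM at 72 h AEL and 91.3, 88.4, 92.1, 79.2 and 129.99 CPM at 96 h AEL, a log2 difference of -0.07 ± 0.23 that did not pass. CycB at 12.5, 26.6, 18.6, 13.5 and 21.2 CPM at 72 h AEL (0.28 ± 0.21), CycA at 23.9, 32.6, 25, 21.2 and 45.1 CPM (0.26 ± 0.15) and polo at 39.8, 64.2, 50.05, 35.1 and 46.9 CPM (0.03 ± 0.17) did not pass either. aurB at 30.1, 47.6, 33.9, 28 and 46.4 CPM (0.40 ± 0.14) and Det at 43.7, 42.1, 39.2, 30.7 and 52.2 CPM (0.25 ± 0.09) lay just outside the threshold, with FDRs of 0.054 and 0.067. The age of 72 h AEL was the more variable, with library 5 the highest for Cdk1, CycA, Det, pav, cnn and sle. The median log2 fold change was 0.21 over the members and 0.02 over all genes. Of 58 other mitosis genes tested, 5 rose and 0 fell, and of 34 DNA replication genes 0 rose and 1 fell, the transcription factor gene E2f1 (-0.70 ± 0.16, FDR = 0.0067).

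From 96 to 120 h AEL almost the whole list fell. Of 33 members, 29 fell and 2 rose, against 42.6% of all 7740 genes called and 20.4% called lower. For 29 members every library of 120 h AEL lay below every library of 96 h AEL in CPM, as for 22.7% of all genes tested. Between the same groups the prohemocyte markers went from 2851 to 3336 CPM up to 4475 to 7210 CPM and the lamellocyte markers (atilla, ItgalphaPS4 and mys) from 208 to 372 CPM up to 455 to 650 CPM, without overlap, and all of them were detected in both. The plasmatocyte markers overlapped (1155 to 3205 and 795 to 2369 CPM), and the part of these shifts in the result was not tested. The median log2 fold change was -0.99 over the members and 0.00 over all genes. In all, 28 of these 31 calls held under every alternative run.

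All genes of mitotic entry were lower at 120 h AEL. stg fell to 24.4, 34.5, 13.2 and 44.1 CPM, a log2 fold change of -1.59 ± 0.26 (SE, FDR = 0.00015), or 3.02-fold. CycB, the B-type cyclin, went from 27.2, 17.5, 23.5, 20.9 and 32.6 CPM at 96 h AEL to 9.40, 10.6, 6.03 and 12.9 CPM (-1.18 ± 0.22, FDR = 0.00046). polo, the kinase that acts on centrosomes, kinetochores and the division furrow, went from 54.2, 48.3, 50.2, 51.8 and 59.9 CPM to 19.3, 20.3, 14.3 and 30.8 CPM (-1.18 ± 0.18, FDR = 9.8e-05). None of these 3 genes had overlapping libraries. Cdk1 fell to 48.9, 42.0, 31.0 and 38.9 CPM (-0.86). CycA, at 41.6, 34.9, 36.7, 34.0 and 42.6 CPM at 96 h AEL, fell to 23.0, 22.1, 13.4 and 23.6 CPM (-0.75). CycB3 fell by 1.46 on the log2 scale.

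The chromosomal passenger complex, which corrects faulty kinetochore attachments, fell as a whole. Its kinase aurB (Aurora B) went from 56.8, 49.5, 55.7, 51.7 and 53.5 CPM to 24.0, 22.4, 15.2 and 29.6 CPM, a log2 fold change of -1.09. Its subunit Det fell least of the 4, from 58.7, 53.8, 51.3, 51.5 and 54.3 CPM to 37.1, 33.02, 34.1 and 41.3 CPM (-0.42 ± 0.09, FDR = 0.0020). Incenp (-1.12) and borr (-0.87) fell as well. The 3 condensin genes barr (-1.25), glu (-0.88) and SMC2 (-0.83) fell, as did the kinetochore and centromere genes cid (-1.56), Ndc80 (-1.39) and Nuf2 (-0.73).

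Cytokinesis is served by tum and pav. pav, the kinesin of the central spindle, went from 29.1, 15.8, 24.7, 17.5 and 15.5 CPM to 6.33, 7.31, 3.15 and 10.3 CPM (-1.46 ± 0.38, FDR = 0.0061). Its partner tum, a GTPase-activating protein, went from 46.7, 28.3, 31.5, 30.8 and 35.7 CPM to 12.4, 10.9, 8.08 and 16.5 CPM (-1.39 ± 0.19, FDR = 3.1e-05). The spindle kinesin ncd went from 30.4, 22.9, 31.3, 26.8 and 31.8 CPM to 10.8, 10.4, 6.57 and 15.0 CPM (-1.29 ± 0.19, FDR = 8.3e-05). asp fell by 1.72 on the log2 scale, though from a level of 2.77 to 6.36 CPM. Both genes of cytokinesis therefore fell, and so did 5 of 8 spindle and centrosome genes.

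The exceptions were in the spindle and centrosome and anaphase groups. stai rose again, to 99.6, 102, 75.2 and 105 CPM, without overlap with 96 h AEL (log2 fold change 1.10 ± 0.19, FDR = 0.00030). cnn held 12, 11, 9.35, 9.43 and 9.59 CPM at 96 h AEL and 14.5, 16.7, 12 and 11.7 CPM at 120 h AEL (0.57 ± 0.19, FDR = 0.026), a call lost in 5 of 9 fits that left out 1 library. Klp10A, a kinesin that shortens microtubules, was level at 40.5 to 60.4 and 36.9 to 48.0 CPM (-0.06), and thr, which acts with separase, was too rare to call at 0.375 to 3.14 CPM (-0.93). vih, the ubiquitin-conjugating enzyme of the anaphase-promoting complex, fell by 0.32, a call lost in 5 of 9 such fits. Among 58 other mitosis genes tested 30 fell and 6 rose, and among 34 DNA replication genes 27 fell and 1 rose, with Mcm3 at -1.35 ± 0.16 (FDR = 9.7e-06), a subunit of the replicative helicase. These comparisons share the libraries of 96 h AEL with those from 72 h AEL and with infestation.

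**Figure D3:**
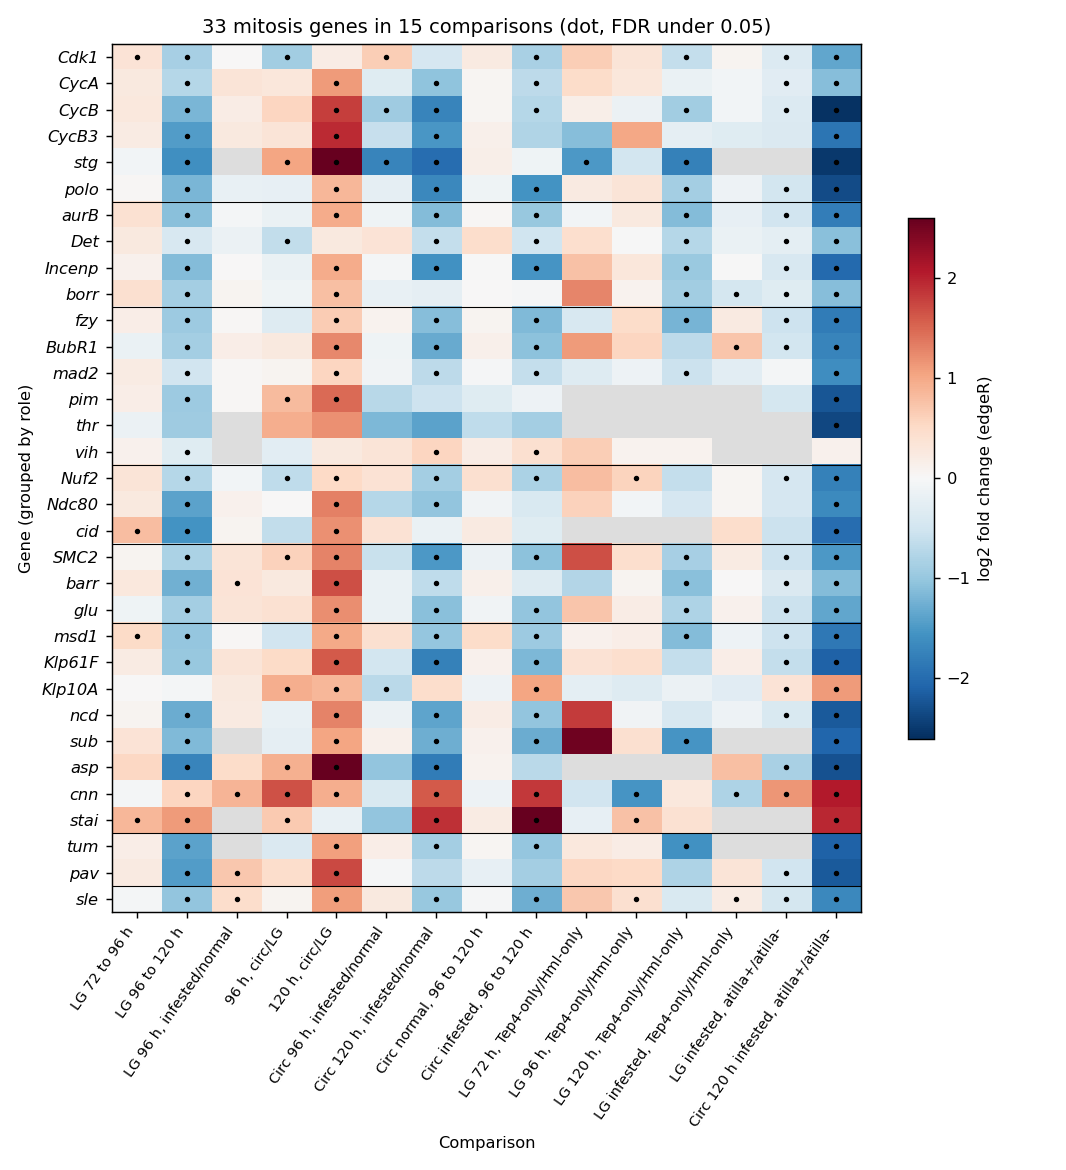
Log2 fold change (colour, edgeR) of the 33 mitosis genes (rows, grouped by role with lines between groups) in 15 comparisons (columns; LG, lymph gland; circ, circulation; x/y, x against y); dots mark an FDR under 0.05 and grey marks genes not listed or not tested. The columns of the lymph gland from 96 to 120 h AEL, of infested against normal circulation at 120 h AEL and of atilla-positive against atilla-negative circulating cells are blue for most rows, with cnn and stai red in all 3.

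Infestation was tested in the lymph gland at 96 h AEL. Of 27 members tested, 4 rose and 0 fell, against 17.7% of 7315 genes called (7.98% higher and 9.76% lower). For 7 members every infested library lay above every normal one in CPM and for 0 below, against 17.3% and 5.09% of all genes tested. cnn rose most, to 13.8, 22.1, 21.3 and 29.2 CPM, above every normal library of that age (log2 fold change 0.89 ± 0.18, SE, FDR = 0.0071). pav rose to 26.8, 36.3, 46.3 and 37.5 CPM, with the lowest library inside the normal range (0.70 ± 0.20, FDR = 0.032). sle, which codes for a nucleolar protein, held 229, 208, 158, 151 and 148 CPM in normal and 261, 284, 270 and 289 CPM in infested glands (0.45 ± 0.14, FDR = 0.043). The condensin gene barr held 13.5, 11.1, 14.3, 12.2 and 14 CPM against 16.9, 17.9, 19.5 and 20.6 CPM (0.36 ± 0.10, FDR = 0.029). Apart from cnn these calls were weak. barr was lost in 4, pav in 6 and sle in 7 of 9 fits that left out 1 library.

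The genes of mitotic entry did not pass. Cdk1 held 77.3, 86.0, 101 and 98.0 CPM in the infested gland, a log2 difference of 0.00 ± 0.09. CycA held 42.4, 50.05, 54.4 and 70.7 CPM (0.34 ± 0.13, FDR = 0.082), CycB 31.7, 27.6, 31.3 and 34.3 CPM (0.20 ± 0.15) and polo 54.2, 45.5, 52.0 and 55.9 CPM (-0.20 ± 0.09). aurB held 48.2, 55.7, 64.5 and 64.6 CPM (-0.05) and Det 49.4, 54.3, 56.8 and 58.2 CPM (-0.15). The summed CPM was thus higher in every infested library while few genes passed, and the TMM scaling of edgeR lowered each log2 fold change of this comparison by 0.14. With library totals in place of that scaling 8 members rose and 0 fell. The count was 1 without normal library 4, infested library 3 or infested library 4, and 2 without normal library 2 or infested library 2. Of 52 other mitosis genes 4 rose and 1 fell, and of 34 DNA replication genes 1 rose and 1 fell.

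Circulating hemocytes were compared with the lymph gland of the same age. At 120 h AEL, 28 of 33 members were higher in circulation and 0 lower, against 51.8% of 8451 genes called and 27.9% called higher. For 32 members, all but stai, every circulation library lay above every lymph gland library in CPM, as for 48.2% of all genes tested. stg held 302, 221 and 319 CPM in circulation, a log2 fold change of 2.78 ± 0.34 (SE, FDR = 2.4e-05), or 6.88-fold over the lymph gland. CycB held 47.6, 44.6 and 51.0 CPM (1.80 ± 0.24, FDR = 3.8e-05). asp held 10.1, 10.5 and 13.0 CPM against 0.63 to 1.75 CPM (2.74 ± 0.36, FDR = 3.7e-05), and CycB3 11.5, 14.3 and 13.3 CPM against 0.961 to 3.66 CPM (1.93 ± 0.37, FDR = 0.00068). These 4 genes stood far above the lymph gland in all 3 circulation libraries.

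Other members differed less. CycA held 67.8, 58.2 and 61.9 CPM in circulation (log2 fold change 1.11), polo 51.3, 46.4 and 65.8 CPM (0.87 ± 0.20, FDR = 0.0022) and aurB 57.0, 53.1 and 79.1 CPM (0.97). Cdk1 held 74.6, 57.9 and 63.7 CPM, above the lymph gland, yet its log2 difference of 0.20 ± 0.14 did not pass (FDR = 0.25), and neither did that of Det, at 69.5, 53.1 and 62.2 CPM (0.25 ± 0.13). The remaining members not called were thr, vih and stai (-0.20). The scaling lowered each log2 fold change here by 0.51, and with library totals 32 members were higher. The median was 1.08 over the members and 0.07 over all genes, and 28 members were called higher also without library 3 of both normal circulation groups. Of 58 other mitosis genes 32 were higher and 4 lower, led by feo (2.54 ± 0.26, FDR = 6.7e-06), which bundles central spindle microtubules. Of 34 DNA replication genes 25 were higher and 0 lower.

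At 96 h AEL, 7 of 33 members were higher in circulation and 3 lower, against 49.8% of all genes called. cnn was higher, at 46.7, 38.2 and 39.9 CPM, than in any lymph gland library (log2 fold change 1.65 ± 0.15, FDR = 1.4e-06). Klp10A held 143, 87.0 and 115 CPM in circulation against 44.8, 40.5, 44.7, 43.9 and 60.4 CPM (0.94 ± 0.16, FDR = 0.00034). stg held 256, 373 and 146 CPM, all above the lymph gland (1.03 ± 0.31, FDR = 0.014), and its call was lost without circulation library 2. SMC2, pim (securin), asp and stai were the other members called higher, and each of these calls was lost in 4 to 6 of 8 fits that left out 1 library.

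Cdk1 was lower in circulation at 96 h AEL, at 55.1, 68.3 and 47.3 CPM, than in every lymph gland library (log2 fold change -0.89 ± 0.14, FDR = 0.00017). Det, at 40.6, 56.9 and 39.5 CPM, overlapped the lymph gland (-0.64 ± 0.13, FDR = 0.0012), and Nuf2 of the outer kinetochore was lower too (-0.65 ± 0.17, FDR = 0.0051). CycA at 61.6, 62.6 and 58.6 CPM (0.30 ± 0.15), CycB at 48.1, 60.2 and 32.1 CPM (0.55 ± 0.23), polo at 58.9, 69.1 and 51.2 CPM (-0.21 ± 0.19) and aurB at 70.6, 68.3 and 46.9 CPM (-0.17 ± 0.19) did not pass. The numbers called depended on scaling, which lowered each log2 fold change by 0.39. With library totals 13 members were higher and 1 was lower. Without lymph gland library 4 the number called was 6, and without library 3 of both normal circulation groups it was 8, with 5 higher and 3 lower. Of 58 other mitosis genes 11 were higher and 9 lower, and of 34 DNA replication genes 9 were higher and 5 lower.

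The difference between tissues itself differed between the 2 ages. In a test of the interaction, 20 of 33 members passed, against 16.7% of all genes, 19 with a larger excess in circulation at 120 h AEL and 1, cnn, with a smaller one. The terms of asp (1.82 on the log2 scale, FDR = 0.024) and stg (1.75, FDR = 0.022) were among the largest, and that of Cdk1, which was called lower at 96 h AEL and not called at 120 h AEL, also passed (1.09, FDR = 0.0049). Most of these calls were lost in a fit without library 3 of the normal circulation groups. That fit also had fewer libraries, and the part of each in the loss cannot be told apart. Without library 3 at both ages 5 members passed, all with a positive term, against 5.04% of all genes. Within normal circulation 0 of 33 members passed from 96 to 120 h AEL, and 0 of 7573 genes by edgeR (0%), although 336 genes had an unadjusted p under 0.05 and DESeq2 called 1 gene. stg at 146 to 373 CPM and 221 to 319 CPM, CycB at 32.1 to 60.2 and 44.6 to 51.0 CPM, and Cdk1 at 47.3 to 68.3 and 57.9 to 74.6 CPM overlapped between the ages. Without library 3 of both ages 105 genes were called, of which 0 were members.

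**Figure D4:**
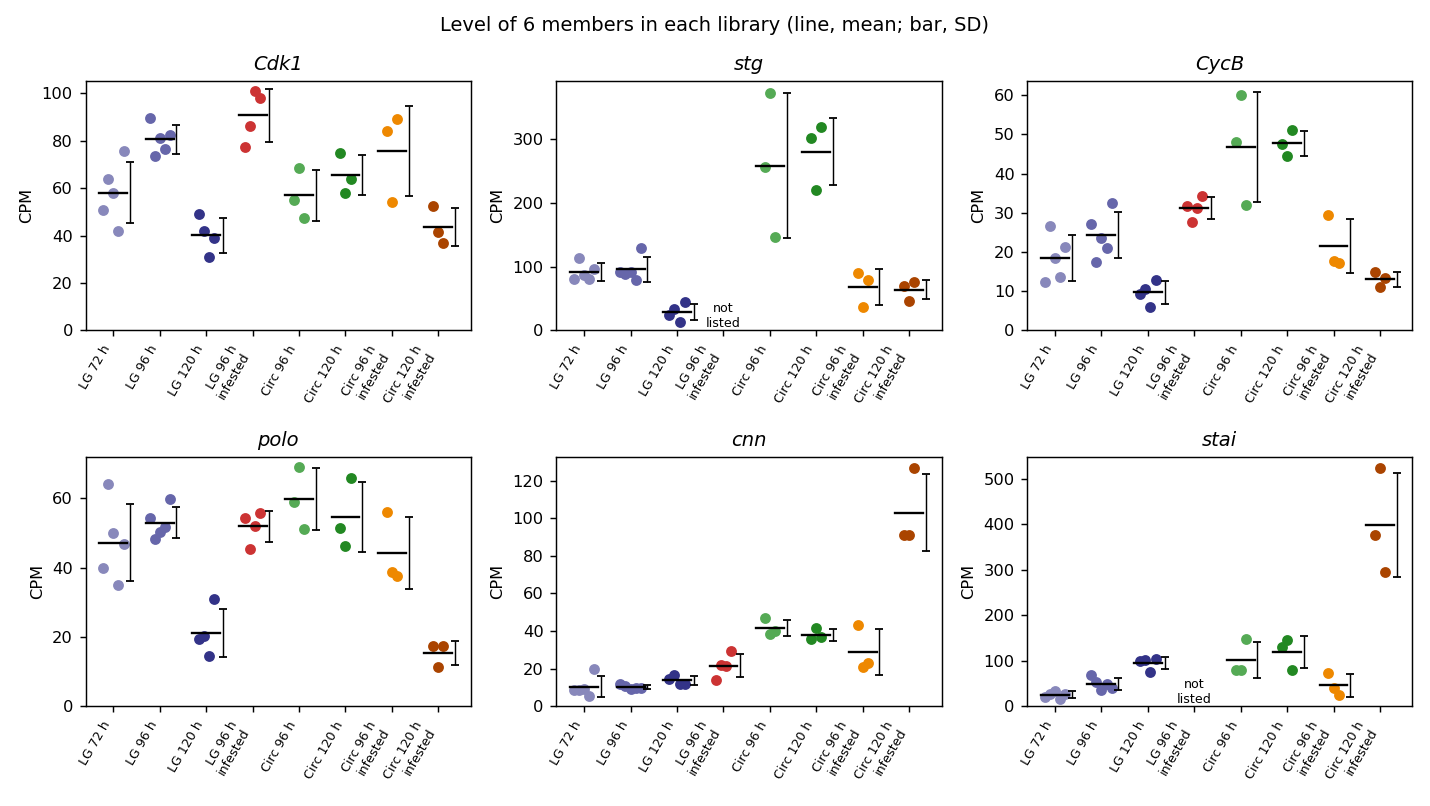
Level of Cdk1, stg, CycB, polo, cnn and stai in each of the 30 libraries, in counts-per-million (CPM, vertical axes from 0), by group (horizontal axes; LG, lymph gland; Circ, circulation); points are libraries, lines are means and bars are SDs, and stg and stai were not listed for the infested lymph gland. stg is highest in normal circulation (146 to 373 CPM), while cnn (90.8 to 127 CPM) and stai (296 to 523 CPM) are highest in infested circulation at 120 h AEL.

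Infestation was followed in circulation at 96 and 120 h AEL. At 120 h AEL, 23 of 33 members were lower in infested than in normal larvae and 3 were higher, against 47% of 7573 genes called and 23.4% called lower. The lamellocyte markers atilla, ItgalphaPS4 and mys summed to 7016 to 9023 CPM in these libraries and 382 to 689 CPM in normal circulation, and the plasmatocyte markers to 489 to 966 CPM against 5444 to 8507 CPM. All markers of both lists were detected in these groups. Their part in the result was not tested in the comparison of libraries. Without library 3 of both normal circulation groups 21 members were lower and 3 higher.

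stg held 69.5, 47.0 and 75.3 CPM in infested circulation at 120 h AEL, below every normal library (log2 fold change -1.99 ± 0.33, SE, FDR = 0.00071), or 3.96-fold. CycB held 14.8, 11.1 and 13.3 CPM (-1.72 ± 0.20, FDR = 6.9e-05) and polo 17.4, 11.4 and 17.3 CPM (-1.67 ± 0.19, FDR = 6.5e-05). Among other large falls were the spindle kinesin Klp61F, from 40.0, 31.3 and 29.6 CPM to 11, 6.31 and 9.75 CPM (-1.76 ± 0.29, FDR = 0.00066), and asp, to 3.63, 2.04 and 2.90 CPM (-1.82 ± 0.44, FDR = 0.0061). Neither gene overlapped between the conditions. CycA at 30.6, 23.7 and 27.9 CPM (-1.04), aurB at 33.5, 22.6 and 22.0 CPM (-1.13) and Det at 40.6, 32.999 and 34.2 CPM (-0.63) fell less. Cdk1, at 52.4, 41.3 and 36.7 CPM, lay below normal circulation in every library but did not pass (-0.44 ± 0.20, FDR = 0.083).

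By role, 5 of 6 genes of mitotic entry, all 3 condensin genes and 3 of 4 passenger complex genes fell. The checkpoint genes BubR1 (-1.30), fzy (-1.11), the activator of the anaphase-promoting complex, and mad2 (-0.69) fell too. In contrast, stai rose to 377, 523 and 296 CPM from 129.5, 147 and 78.8 CPM (log2 fold change 1.91 ± 0.38, FDR = 0.0020) and cnn to 91.2, 90.8 and 127 CPM from 35.6, 41.4 and 36.8 CPM (1.59 ± 0.19, FDR = 0.00011). vih rose as well (0.57 ± 0.15, FDR = 0.010), from 36.5 to 36.6 CPM to 47.5 to 50.4 CPM. The 3 rises were in every infested library, so the list split into a large part that fell and a small part that rose. With stai counted, the mean summed level of this group was 1161.5 rather than 763 CPM. The median log2 fold change was -1.03 over the members and -0.01 over all genes. Of 58 other mitosis genes 27 were lower and 9 higher, and of 34 DNA replication genes 11 were lower and 1 was higher. E2f1 led the latter list, at 86.2 to 98.7 CPM (-1.61 ± 0.17, FDR = 4.6e-05).

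At 96 h AEL, 3 of 33 members were lower and 1 was higher, against 35.8% of genes called and 17% called lower. stg held 90.5, 36.8 and 78.9 CPM, below normal circulation in every library (log2 fold change -1.72 ± 0.33, FDR = 0.0032). CycB held 29.5, 17.8 and 17.2 CPM, also without overlap (-0.93 ± 0.20, FDR = 0.0054). Klp10A held 87.2, 52.0 and 50.2 CPM (-0.71 ± 0.21, FDR = 0.021). Only stg and CycB of the 4 calls held under every alternative run.

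Cdk1 was called higher, at 83.9, 54.0 and 88.9 CPM, though one library lay inside the normal range (0.64 ± 0.20, FDR = 0.029), and the call was lost in 3 of 6 fits that left out 1 library and without library 3 of both normal circulation groups. CycA at 58.0, 33.6 and 37.8 CPM (-0.32 ± 0.14), polo at 56.1, 38.7 and 37.5 CPM (-0.23 ± 0.19), aurB at 60.7, 36.7 and 52.4 CPM (-0.11 ± 0.22) and Det at 49.8, 44.7 and 52.4 CPM (0.36 ± 0.17) did not pass. Infested library 1, the small and deep one, was the highest of the 3 for CycA, polo and aurB. These libraries are also the ones with lymph gland-like marker levels, whose part in the result was not tested. Without infested library 1, the small and deep one, 11 members were called, 2 higher and 9 lower. Without normal library 1 or infested library 3 the number was 2. The difference in effect between the ages (120 h minus 96 h AEL) passed for 16 of 33 members, against 12.4% of all genes. The term was negative for 13 members, against 5.23% of all genes. It was positive for 3 (stai, cnn and Klp10A), against 7.16%. At 96 h AEL Klp10A was lower, as given above, and the log2 differences of cnn (-0.39) and stai (-1.02) did not pass. Without library 3 of both normal circulation groups 8 members passed, 6 with a negative and 2 with a positive term, against 7.18% of all genes. The difference in effect between circulation and lymph gland at 96 h AEL passed for 8 of 27 members, against 27.7% of all genes, a share near the background. Without those libraries it passed for 7, against 24.8%.

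Within infested circulation, 19 of 33 members fell from 96 to 120 h AEL and 4 rose, against 33.9% of genes called. Between these ages the lamellocyte markers went from 674 to 1329 CPM up to 7016 to 9023 CPM and the prohemocyte markers from 2060 to 2791 CPM down to 303 to 480 CPM, while the plasmatocyte markers overlapped (734 to 1574 and 489 to 966 CPM). All were detected at both ages. The libraries of 96 h AEL are those with lymph gland-like marker levels, and the part of the marker shifts in the result was not tested. polo fell by 1.56 on the log2 scale (± 0.19, SE, FDR = 0.00016). Incenp, the scaffold of the passenger complex, went from 57.0, 31.4 and 34.3 CPM to 18.1, 11.4 and 13.5 CPM (-1.53 ± 0.19, FDR = 0.00018). stg did not pass (-0.12 ± 0.32, FDR = 0.80) and was below normal circulation at both ages. stai rose from 72.3, 40.6 and 23.8 CPM, the largest change of any member in these comparisons between groups (3.14 ± 0.40, FDR = 0.00023), and cnn from 43.1, 20.9 and 23.0 CPM (1.84 ± 0.20, FDR = 8.4e-05). Klp10A rose too (1.02 ± 0.20, FDR = 0.0032), to 115, 124 and 151 CPM. Of 58 other mitosis genes 20 fell and 7 rose, and of 34 DNA replication genes 5 fell and 0 rose.

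Cells were next divided by the transcripts they held. Tep4 marks prohemocytes and Hml differentiating hemocytes. Cells with Tep4 but no Hml UMI (Tep4-only) and cells with Hml but no Tep4 UMI (Hml-only) were summed per library, and compared within libraries of at least 20 cells of each kind. Cells with both transcripts made up 55.3% to 83.9% of a lymph gland library and were left out of the comparison. In the normal lymph gland at 120 h AEL, 16 of 29 members tested were lower in Tep4-only cells and 0 higher, against 19.3% of 6060 genes called and 9.03% called lower. The summed level of the 27 genes was 364, 380, 242 and 492 CPM in Tep4-only and 577, 712, 463 and 599 CPM in Hml-only cells of libraries 1 to 4, lower in each library. Tep4-only cells were the deeper ones, with medians of 3627 to 7502 against 2692 to 4658 UMIs per cell.

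stg held 14.02, 19.5, 6.79 and 32.7 CPM in Tep4-only and 51.9, 96.6, 33.8 and 50.5 CPM in Hml-only cells at 120 h AEL (log2 fold change -1.75 ± 0.31, FDR = 0.00041). tum held 8.21, 4.94, 2.69 and 10.6 CPM against 14.7, 29.2, 12.9 and 18.4 CPM (-1.58 ± 0.29, FDR = 0.00057). Both were lower in Tep4-only cells of every library. fzy held 5.81, 6.35, 4.39 and 5.76 CPM against 14.7, 15.5, 11.6 and 14.3 CPM (-1.20 ± 0.26, FDR = 0.0027), and msd1 16.2, 13.6, 9.62 and 21.1 CPM against 37.2, 47.1, 21.8 and 32.1 CPM (-1.13 ± 0.19, FDR = 0.00021). These too kept their order in every library. aurB at 15.0, 16.5, 6.37 and 25.0 CPM against 40.6, 35.8, 25.3 and 27.4 CPM (-1.12 ± 0.23, FDR = 0.0017) and Det at 28.2, 25.9, 24.3 and 20.2 CPM against 43.2, 47.7, 44.9 and 45.8 CPM (-0.73 ± 0.17, FDR = 0.0036) were lower as well.

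Cdk1 held 39.3, 27.5, 22.9 and 43.2 CPM in Tep4-only cells at 120 h AEL and 57.1, 72.8, 39.99 and 42.8 CPM in Hml-only cells (-0.62 ± 0.19, FDR = 0.029), with library 4 in the other direction. CycB held 6.33, 10.1, 3.54 and 6.73 CPM against 13.8, 20.3, 7.998 and 11.3 CPM (-0.91 ± 0.31, FDR = 0.048). polo held 13, 11.5, 8.63 and 21.1 CPM against 22.5, 29.8, 21.8 and 24.4 CPM (-0.88 ± 0.23, FDR = 0.010). All 3 passed, but the calls of Cdk1 and CycB were lost in 3 of 4 fits that left out 1 library and that of polo in 2 of 4. CycA, at 9.06 to 30.7 CPM against 12.4 to 28.5 CPM, did not pass (-0.18 ± 0.17). Without library 3 the number of members called was 8. Of 28 DNA replication genes tested 13 were lower in Tep4-only cells and 1 was higher, and of 47 other mitosis genes 8 were lower and 1 was higher.

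The difference between ages was not tested. At 96 h AEL, Tep4-only cells held 1247, 924, 1051, 961 and 1019 CPM of the 27 genes and Hml-only cells 879, 930, 900, 866 and 891 CPM. Tep4-only cells were higher in 4 of 5 libraries, and 3 of 29 members were called higher and 1 lower, against 32% of genes. With status taken from cells thinned in depth 8 were higher and 3 lower, against 38.9% of genes. cnn was the lower one, at 9.55, 4.39, 3.72, 6.04 and 5.98 CPM against 17.8, 19.0, 21.0, 15.4 and 8 CPM (log2 fold change -1.53 ± 0.37, FDR = 0.0032). stai was higher in every library, at 130, 63.2, 54.9, 79.1 and 51.4 CPM against 58.3, 45.9, 21.0, 46.2 and 46.0 CPM (0.77 ± 0.18, FDR = 0.0030). Of the genes of entry and the passenger complex, Cdk1 at 65.4 to 120.3 CPM against 54.99 to 87.4 CPM (0.33 ± 0.17), stg at 55.8 to 183 CPM against 98.8 to 193 CPM (-0.47 ± 0.25), CycA, CycB, polo, aurB and Det did not pass. sle and Nuf2 were the other members called higher, and their calls were lost in 3 and 4 of 5 fits that left out 1 library. At 72 h AEL, 3 libraries had enough Hml-only cells (1 to 50 in the 5 libraries). Their summed levels had no common direction, at 810, 785 and 595 CPM in Tep4-only and 561, 833 and 548 CPM in Hml-only cells of libraries 1, 2 and 4. In all, 1 of 29 members was called, against 14.8% of genes (8.47% higher and 6.37% lower). This was stg, at 121, 73.4 and 21.3 CPM in Tep4-only and 223, 190 and 267 CPM in Hml-only cells (-1.49 ± 0.40, FDR = 0.014), a call lost without library 4. With 1, 2 or 4 of the libraries left out in turn, 2, 2 and 0 members were called.

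In the infested lymph gland, Tep4-only and Hml-only cells differed in few members, 2 higher and 2 lower of 26, against 27.2% of genes. cnn was lower in Tep4-only cells of every library, at 10.1, 28.4, 17.3 and 24.4 CPM against 28.2, 35.1, 32.3 and 48.1 CPM (log2 fold change -0.81 ± 0.18, FDR = 0.0032). borr, a passenger complex subunit, held 39.2, 31.2, 36.8 and 40.4 CPM against 52.3, 54.2, 46.5 and 57.5 CPM (-0.45 ± 0.12, FDR = 0.014). The checkpoint kinase gene BubR1 was higher in every library, at 20.6, 16.07, 17.3 and 17.7 CPM against 8.05, 16.05, 10.7 and 8.36 CPM (0.73 ± 0.23, FDR = 0.032), and sle was higher by 0.20. Each of these 3 calls was lost in at least 1 fit that left out 1 library, and 2 members were called without library 1, 3 or 4. Cdk1 held 88.6, 80.3, 112 and 103 CPM against 75.1, 105, 104 and 89.9 CPM, with no common direction over the libraries.

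Circulating cells were divided by atilla, a surface protein of lamellocytes. In infested circulation at 120 h AEL, atilla-positive cells numbered 1321, 1610 and 2594 in libraries 1 to 3 and atilla-negative cells 458, 356 and 369. The 27 genes summed to 649, 555 and 709 CPM in atilla-positive and 1713, 1576 and 1727 CPM in atilla-negative cells. Of 33 members, 29 were lower in atilla-positive cells and 3 higher, against 55.1% of 7487 genes called and 25.7% called lower, and the median log2 fold change was -1.80 over the members and 0.01 over all genes. Atilla-positive cells were deeper, with medians of 7237 to 7502 against 3705 to 3927 UMIs. With cells and status taken at 1000 UMIs, cells with at least 3 UMIs of the members made up 2.24% to 3.65% of atilla-positive and 19.6% to 24.2% of atilla-negative cells. At that depth the 27 genes summed to 1600, 1396 and 1672 CPM in atilla-negative cells of infested circulation and to 1313, 1186 and 1413 CPM in those of normal circulation of that age, which overlapped. Unthinned, atilla-negative cells of normal circulation held 1372, 1210 and 1418 CPM, below the 1713, 1576 and 1727 CPM of atilla-negative cells of infested circulation. Whether these cells differ was not tested.

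CycB held 6.53, 5.66 and 9.61 CPM in atilla-positive and 55.2, 52.3 and 59.7 CPM in atilla-negative cells (log2 fold change -2.58 ± 0.15, SE, FDR = 4.0e-06), or 5.97-fold. stg held 31.5, 23.9 and 56.0 CPM against 254.5, 222 and 317 CPM (-2.52 ± 0.14, FDR = 3.0e-06), and polo 9.21, 5.88 and 13.1 CPM against 57.4, 52.9 and 69.98 CPM (-2.33 ± 0.16, FDR = 8.7e-06). In atilla-negative cells stg, polo, asp and CycA overlapped the range of normal circulation of that age, and CycB lay just above it. Cdk1, aurB and Det also lay above it in every library. asp held 2.06, 1.04 and 2.21 CPM against 11.3, 9.56 and 11.5 CPM (-2.27 ± 0.35, FDR = 0.00089). Cdk1 held 40.0, 30.3 and 31.9 CPM against 113, 125 and 97.5 CPM (-1.35), CycA 22.8, 19.7 and 24.9 CPM against 68.7, 53.4 and 65.4 CPM (-1.11), aurB 23.1, 14.9 and 17.3 CPM against 84.4, 81.0 and 80.3 CPM (-1.80), and Det 32.0, 26.5 and 30.5 CPM against 82.7, 82.1 and 80.3 CPM (-1.09). All genes of entry and of the passenger complex were lower in atilla-positive cells, in every library.

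The 3 members that were higher in atilla-positive cells were among the 4 that rose with time in infested circulation, from the same libraries of 120 h AEL. cnn held 102, 99.1 and 134 CPM against 37.0, 28.1 and 37.3 CPM (log2 fold change 2.06 ± 0.11, FDR = 2.8e-06). stai held 434, 577 and 301 CPM against 98.3, 116 and 230 CPM (1.95 ± 0.33, FDR = 0.00155), and Klp10A 124, 130 and 155 CPM against 72.2, 78.2 and 95.2 CPM (1.10 ± 0.08, FDR = 1.3e-05). vih was the only member not called, at 49.7, 47.6 and 46.3 CPM against 53.9, 55.7 and 62.0 CPM (0.11 ± 0.10, FDR = 0.36). Its CPM was lower in every library while its fitted value was above 0, since the scaling added 0.37 to each log2 fold change of this comparison. In all, 31 of the 32 calls held under every alternative run. Of 58 other mitosis genes 35 were lower and 8 higher, and of 34 DNA replication genes 25 were lower and 1 was higher.

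**Figure D5:**
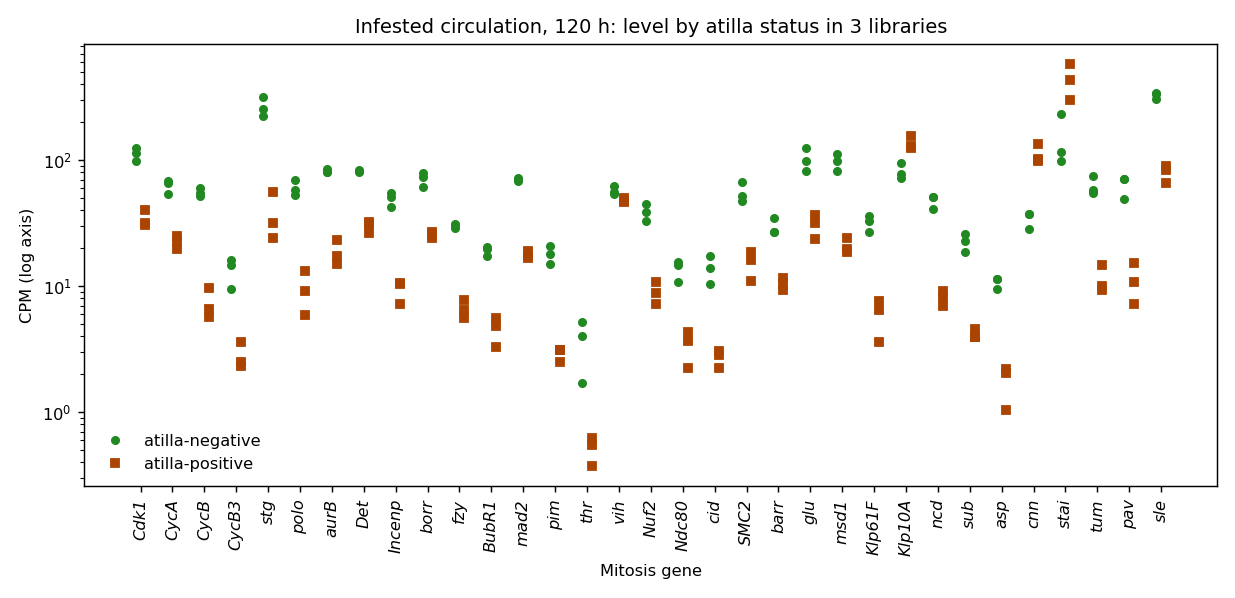
Level of the 33 mitosis genes in atilla-positive (squares) and atilla-negative (circles) cells of the 3 libraries of infested circulation at 120 h AEL, in counts-per-million (CPM, vertical log axis), with genes along the horizontal axis in the order of their roles. In every library 30 genes are lower and cnn, stai and Klp10A are higher in atilla-positive cells.

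The same split was smaller in the infested lymph gland at 96 h AEL. There the 27 genes summed to 982, 967, 1044 and 1102 CPM in atilla-positive and 1146, 1264, 1323 and 1397 CPM in atilla-negative cells, lower in each library. Of 27 members, 20 were lower and 2 higher, against 34% of 6579 genes called and 16.6% called lower, with a median log2 fold change of -0.44. Among the lower ones, msd1 held 44.0, 39.2, 54.3 and 45.1 CPM against 61.8, 61.0, 76.3 and 61.4 CPM (-0.55 ± 0.07, FDR = 3.2e-05). glu held 43.8, 64.1, 62.8 and 64.7 CPM against 63.9, 84.5, 90.3 and 108 CPM (-0.55 ± 0.07, FDR = 3.7e-05), and Klp61F 17.2, 11.8, 19.6 and 17.9 CPM against 18.2, 25.1, 27.5 and 34.3 CPM (-0.63 ± 0.15, FDR = 0.0051). All 3 were lower in every library.

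Cdk1, at 65.2, 66.7, 85.2 and 84.3 CPM against 80.3, 92.3, 103.5 and 100.4 CPM (-0.36 ± 0.06, FDR = 0.00051), CycA (-0.29 ± 0.09, FDR = 0.018), CycB (-0.36 ± 0.09, FDR = 0.0093), polo, at 45.7, 34, 38.8 and 40.04 CPM against 56.3, 49.2, 54.1 and 58.6 CPM (-0.47 ± 0.07, FDR = 0.00025), aurB (-0.49 ± 0.07, FDR = 0.00016) and Det (-0.26 ± 0.08, FDR = 0.018) were lower as well, each by less than in circulation. cnn was again higher in atilla-positive cells, at 23.7, 39.5, 49.6 and 40.0 CPM against 11.4, 16.4, 16.9 and 27.3 CPM (1.16 ± 0.13, FDR = 2.1e-05), and so was Klp10A (0.35 ± 0.07, FDR = 0.0011). stai was not listed there. The difference between the 2 tissues was not tested, as time and tissue differ together. Of the 22 calls, 5 held under every alternative run. DESeq2 called 14 members, and 5 were called when the model did not hold the library as a block.

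The members lie on all major chromosome arms, with 9 on 2L, 9 on 2R, 7 on 3L, 6 on 3R and 2 on X in the BDGP6 annotation. For 10 of them (fzy, mad2, thr, vih, Nuf2, glu, msd1, Klp61F, ncd and sub) the annotated 3′ end lies inside a gene on the opposite strand. How the counting used strand is not given in the sources used here, so reads of these genes and their antisense neighbours may not be fully separated. Klp10A and cnn each overlap 1 other gene on their own strand and stai overlaps 2, though their 3′ ends lie inside none of these. Reads from such overlaps may likewise not be fully separated, and no overlap is annotated for stg, CycB or polo.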

How the data were processed

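Single-cell transcriptomes of lymph glands and circulating hemocytes were measured by Drop-seq in 30 libraries. The authors aligned reads to BDGP6 with STAR 2.5.3a within the Drop-seq tools and Picard, and deposited UMI counts per gene and cell barcode without normalization. No aligned reads were used here, and 0 columns belonged to no sample.

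Barcodes with 400 to 5000 genes, at most 2 SDs above the mean UMI total of their library and a mitochondrial share of up to 10% in lymph gland or 20% in circulation libraries were kept. These limits were not applied to the infested lymph gland, whose 10179 barcodes were all kept. Their number equals that of the cells the study had left after its own filters, so they were taken as filtered before deposit. The study let in cells with fewer genes for some infested libraries than for normal ones. The cell filters of the infested and normal lymph gland therefore differ. No doublet caller was run here beyond the UMI ceiling, whereas the study used Scrublet.

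Counts were summed per library, or per library and status of the cell (at least 1 UMI of the marker and at least 20 cells of each status), and differences were tested by quasi-likelihood F-tests in edgeR 4.0.16 (R 4.3.3, limma 3.58.1) with TMM scaling and its default filter on low counts. Libraries of the groups compared entered each fit, with the library as a block for status. FDRs are Benjamini-Hochberg values over all genes tested. SEs are the log2 fold change divided by the square root of F. The comparisons were 9 between groups, 6 by status and 3 interactions. Alternatives were DESeq2 1.42.0, no filter, a stricter UMI ceiling, library totals, other status rules, other blocks, and leaving out each library or the doubted ones. Python 3.11.15 was used for the rest.

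The members and gene lists were chosen with earlier results of these data known. By rule, the text names Cdk1, CycA, CycB, stg, polo, aurB and Det and, in each comparison, the 4 members with the largest log2 fold changes among those that passed and reached 10 CPM in one of the groups. Up to 2 genes of each other list were named by the same measure, and members named beyond this were chosen after their values were seen. The procedure was tested on simulated data, in which 98% of genes changed 4-fold and 75% of those changed 2-fold were recovered for the lymph gland from 96 to 120 h AEL, 80% and 35% for infested against normal circulation at 120 h AEL, and 90% and 67% for atilla status in circulation. The p-values set each difference between groups against the variation between libraries. By status, with the library as a block, they set the difference against its variation from library to library. Drop-seq counts 3′ ends, so no test compared levels between genes. The parts of the summed level held by sle, Klp10A and cnn are shares of UMIs only.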

Additional observations from a re-analysis of the deposited data

Results flagged for a closer look

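Of 130 sets of values tested for a single library far from the rest of its group, 9 had one, where chance gives about 1 in 20. In the normal lymph gland at 72 h AEL, asp reached 4.73 CPM in library 2 (2.02 to 2.32 in the others), cnn 19.9 CPM in library 5 (5.53 to 9.28) and sle 269 CPM in library 5 (138 to 159). At 96 h AEL, stg reached 129.99 CPM in library 5 (79.2 to 92.1), Klp10A 60.4 CPM in library 5 (40.5 to 44.8) and sub 17.3 CPM in library 1 (13.3 to 13.9). At 120 h AEL, CycA held 13.4 CPM in library 3 (22.1 to 23.6). In the infested lymph gland, borr held 37.4 CPM in library 2 (40.4 to 40.5) and Ndc80 12.3 CPM in library 4 (9.65 to 10.1).

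The effect of infestation at 96 h AEL differed between tissues by edgeR's interaction test for 8 of 27 members, against 27.7% of all genes, a share near the background. The difference, circulation minus lymph gland on the log2 scale, was positive for Cdk1 (0.67) and Det (0.55). It was negative for CycA (-0.63), CycB (-1.095), Ndc80 (-0.80), SMC2 (-0.87), Klp10A (-0.92) and cnn (-1.24). The FDRs lay between 0.00687 and 0.0346. Without library 3 of both normal circulation groups 7 members passed, all with a negative term. This test uses the infested circulation libraries with lymph gland-like marker levels, and their part in the result was not tested.

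The effect of infestation in circulation differed between the ages for 16 members, against 12.4% of all genes, and for 8 without library 3 of both normal circulation groups. The difference, 120 h minus 96 h AEL, was positive for cnn (1.98), stai (2.93) and Klp10A (1.16). It was negative for Cdk1 (-1.08), CycA (-0.73), polo (-1.44), Det (-0.99), Incenp (-1.52), fzy (-1.21), Nuf2 (-1.25), glu (-0.93), msd1 (-1.43), ncd (-1.21), sub (-1.40), tum (-1.06) and sle (-1.23). The infested libraries of 96 h AEL in this test are those with lymph gland-like marker levels, whose part in the result was not tested.

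The difference between circulation and lymph gland of normal larvae differed between the ages for 20 members, against 16.7% of all genes, and for 5 without library 3 of both normal circulation groups. Again as 120 h minus 96 h AEL, it was negative for cnn (-0.70). Among genes of entry and the passenger complex it was 1.095 for Cdk1, 0.81 for CycA, 1.25 for CycB, 1.60 for CycB3, 1.75 for stg, 1.08 for polo, 1.135 for aurB, 0.90 for Det and 1.128 for Incenp. It was 1.005 for fzy, 1.17 for Nuf2, 1.299 for Ndc80, 1.82 for cid and 1.41 for barr. For the spindle genes it was 1.49 for msd1, 1.49 for ncd, 1.26 for sub and 1.82 for asp, and for tum of cytokinesis 1.46.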

How the results depend on the processing

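Of the values for single members, 3725 kept their side of the threshold under an alternative, 273 calls were lost, 31 were gained and 0 turned direction. Leaving out 1 library gave 3 to 5 members called in the lymph gland from 72 to 96 h AEL, 29 to 31 from 96 to 120 h AEL, 1 to 6 for infested against normal lymph gland, 6 to 10 and 27 to 29 for circulation against lymph gland at 96 and 120 h AEL, 2 to 11 and 23 to 26 for infestation in circulation at the same ages, 0 in normal circulation and 17 to 22 within infested circulation. By status it gave 0 to 2, 3 to 4, 8 to 18 and 2 to 5 for Tep4-only cells at 72, 96 and 120 h AEL and in the infested lymph gland, and 17 to 19 and 31 to 32 for atilla in lymph gland and circulation. A stricter UMI ceiling left 1 member called from 72 to 96 h AEL. For infestation in the lymph gland, 2 members were called with a replicate block, 1 in 1 fit of all 30 libraries and 8 with library totals. For infestation in circulation at 96 h AEL, 2 were called without the libraries that share barcodes. Without library 3 of both normal circulation groups the interactions of infestation with time and of tissue with time gave 8 and 5 members in place of 16 and 20. For Tep4-only cells at 72 h AEL the number was 3 with no filter on low counts, 4 with status from thinned cells, 0 with no block, 3 with all barcodes and 2 with the stricter ceiling, and at 96 h AEL it was 11 with thinned status and 2 with no block. In the infested lymph gland, DESeq2 called 1 and no block gave 1 for Tep4-only cells, and 14 and 5 for atilla. The cause of these shifts was not tested.

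Libraries of the same number were not taken as pairs in the main fits. The correlations of their deviations ranged from -0.61 to 0.42. Libraries of different numbers were not correlated, so whether the numbers pair the groups was not tested. With the replicate block 31 members were called in the lymph gland from 96 to 120 h AEL and 25 for infestation in circulation at 120 h AEL. Shares of cells with at least 5 member UMIs averaged 6.10%, 8.82%, 3.13% and 15.5% in the lymph gland at 72, 96 and 120 h AEL and infested, and 4.64%, 4.57%, 3.19% and 2.30% in normal circulation at 96 and 120 h AEL and infested circulation at 96 and 120 h AEL. Not thinned, shares with at least 3 averaged 74.2%, 67.3%, 42.1%, 71.5%, 71.9%, 73.0%, 69.9% and 65.2% in the same order. With stai the summed level of infested circulation at 120 h AEL was 1161.5 CPM. Alternatives on doubted libraries and library totals were chosen after seeing the data. Depth limits rare members, since with the normal lymph gland thinned thr held 52 UMIs, asp 91, cid 104 and pim 114.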

Other observations

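Some genes outside the list were concentrated in cells rich in mitosis transcripts of the normal lymph gland. The values of the noncoding RNA genes pncr002:3R (4.36, from 301 UMIs, with libraries from 1.75 to 6.69) and CR43283 (3.36, from 2168 UMIs, with libraries from 0.0131 to 7.68), which are not mitosis genes, lay above those of all members. asp, the highest member, ranked 12 among the 7341 genes, and most genes above it held fewer UMIs than these. Below asp were mei-38 (2.41), a spindle protein gene, Cks30A (2.39), whose product binds Cdk1, aurA (2.20), the centrosomal Aurora kinase, the replicative helicase gene Mcm5 (2.19), sip2 (2.15) and cmet (2.14), a kinetochore kinesin. These values, chosen after they were seen, are the share of a gene's UMIs in such cells divided by the share of such cells, against a median of 1.07 over all genes.

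rap, also called fzr, codes for an activator of the anaphase-promoting complex that acts at mitotic exit and in endocycles. It moved opposite to most members in infested circulation at 120 h AEL, with 153 to 209 CPM against 24.8 to 28.7 CPM in normal circulation (log2 fold change 2.84 ± 0.28, SE, FDR = 3.2e-05 by edgeR). In atilla-positive cells of libraries 1 to 3 it held 176, 180 and 224 CPM, against 42.2, 32.1 and 24.1 CPM in atilla-negative cells (2.89 ± 0.19, FDR = 7.0e-06). The values did not overlap in either comparison.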
